A study of Mus musculus with 32 samples.

Results

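Integrins are the receptors by which kidney cells hold on to the matrix around them. Each is a pair of an alpha and a beta chain, and which pair a cell carries decides whether it grips laminin, collagen, fibronectin or the latent form of TGF-beta. Ddr1 is a receptor tyrosine kinase that binds collagen directly, without an integrin. In Alport disease a collagen IV chain of the glomerular basement membrane is lost, so the matrix that these receptors meet is altered. Described here are 10 such genes, chosen by name, of the 32544 genes in the count table: the alpha chains Itga1, Itga2, Itga3, Itga8 and Itgav, the beta chains Itgb1, Itgb5, Itgb6 and Itgb8, and Ddr1. All 10 were in the table.

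RNA-Seq counts came from the renal cortex of 32 Col4a3tm1Dec mice on the C57BL/6J background, aged 25 weeks, with 4 mice in each of 8 groups. Controls were heterozygous (Col4a3+/-), so they too carried 1 mutant allele, and Alport mice were homozygous (Col4a3-/-). Within each genotype and sex, mice received from 10 weeks of age either vehicle, which was a purified control diet alone, or that diet with 0.5% w/w of nicotinamide riboside (NR), a precursor of NAD+. Whole cortex was used, so that more cells of a type and more RNA per cell cannot be told apart.

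Total counts were 16621944–27778797 per library. Counts were scaled by the trimmed mean of M values (TMM) to CPM (counts relative to the total of the library), and genes were tested with the edgeR quasi-likelihood test in 1 fit per comparison, with p-values adjusted over all genes that passed a filter on low counts (threshold 0.05). Errors of fold changes are standard errors. The targeted gene served as a check of the labels: Col4a3 fell in Alport mice of both sexes on vehicle, with a log2 fold change of −1.40 ± 0.14 in males and −1.19 ± 0.11 in females, but was not absent. Its level in NR-treated control males (59.0, 93.7, 74.9 and 160.3 CPM) overlapped that of NR-treated Alport males (55.9–67.7 CPM) in 1 mouse, replicate 1, and lay below every vehicle-treated control male (150.5–200.1 CPM) in 3 of the 4. Results that rest on the libraries labelled as NR-treated control males are therefore also given without replicate 1. In control females too, Col4a3 was lower on NR (104.8–123.4 CPM) than on vehicle (139.7–162.8 CPM), without overlap. NR-treated Alport females were at 49.0–58.9 CPM. The cause of the lower level in NR-treated controls was not tested. Markers of glomerular, tubular, interstitial and immune cells were all present. On vehicle, the summed level of 10 proximal tubule markers was 23140.0–24863 CPM in control and 8333–13639 CPM in Alport males, and that of 10 fibroblast and mesangial markers was 111–120.0 and 317–616 CPM. The sum of 10 podocyte markers was 540.2–621 and 909–1332 CPM, and that of 10 leukocyte markers 59.4–82.2 and 348–502 CPM. The part of these shifts in the results on the receptors was not tested.

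Compared per kilobase of exon, the receptors of vehicle-treated control males spanned a wide range. Itgb1, the beta chain shared by most laminin and collagen receptors, was the most abundant, at 62.0 ± 2.20 CPM per kb (mean ± SD, n = 4). Ddr1 followed at 49.8 ± 1.01 CPM per kb and Itgb5 at 35.5 ± 1.85 CPM per kb. Itgb8 was at 21.7 ± 2.39, Itgav at 15.3 ± 2.44, Itga3 at 8.06 ± 0.448 and Itgb6 at 5.64 ± 1.51 CPM per kb. The lowest were Itga1 at 2.92 ± 0.395, Itga8 at 1.07 ± 0.125 and Itga2 at 0.0394 ± 0.0151 CPM per kb. No neighbours in this order overlapped in their 4 mice. In vehicle-treated Alport males the order had changed: Itgb5, at 66.9 ± 7.84 CPM per kb, stood above Ddr1, at 56.4 ± 2.56 CPM per kb, with overlapping ranges of 58.9–77.0 and 54.4–60.0. Itgb8 had moved from above Itgav and Itga3 to below both, although the ranges of Itgb8 (12.5–18.2 CPM per kb), Itga3 (13.6–20.7) and Itgav (17.3–21.5) overlapped there. Itga2 was the lowest in all 8 groups.

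**Figure D1:**
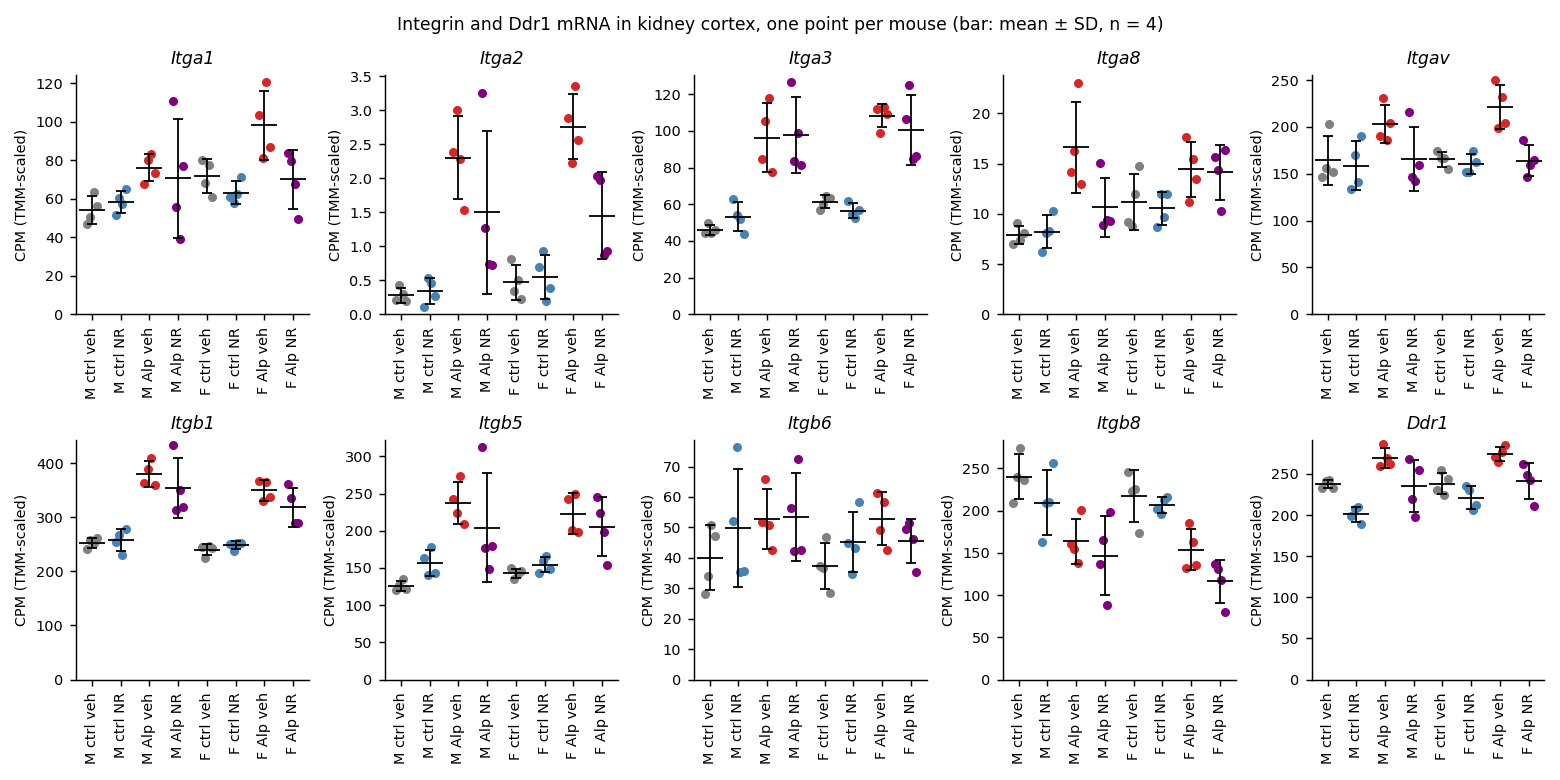
CPM of the 10 receptor genes in each of the 32 mice (points), with mean ± SD of the 4 mice of each group (M male, F female, ctrl control, Alp Alport, veh vehicle); each y axis is linear and starts at 0. In both sexes, the vehicle-treated Alport mice lie above all vehicle-treated controls for Itga1, Itga2, Itga3, Itgb1, Itgb5 and Ddr1, and Itgb8 alone has a lower mean in Alport mice.

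To find how the receptors differ in the disease, vehicle-treated Alport mice were compared with vehicle-treated controls. In males, 9 of the 10 genes rose and Itgb8 fell; in this comparison, 51.0% of all 15286 genes tested passed the threshold, 26.8% as higher and 24.2% as lower. In females, 8 rose and Itgb8 fell, while Itga8 did not pass, against 45.8% of 15709 genes (24.0% higher and 21.8% lower). The median log2 fold change of the 10 genes was 0.62 in males and 0.51 in females, where that of all genes tested was −0.0013 and −0.00083. Itga2 passed the filter on low counts through its Alport libraries in both sexes, since the level that at least 4 of the 8 mice must reach was met by 4 Alport mice and by 0 control males and 2 control females. Its values are therefore a description, and its tests between the genotypes support nothing. The counts and medians above include Itga2.

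Itga3, the laminin-binding alpha chain of podocytes and tubular epithelium, rose by 2.21-fold in males. It was at 44.3, 49.7, 44.3 and 45.9 CPM in the vehicle-treated control males and at 84.4, 106, 118 and 77.4 CPM in the vehicle-treated Alport males. The lowest Alport male lay above the highest control, with a log2 fold change of 1.15 ± 0.12 (adjusted p = 1.61e-05, edgeR). Such a separation of the 4 mice of each group was found for 50.3% of the genes tested in males and 44.3% in females. In females, Itga3 was at 56.9, 60.3, 64.7 and 63.6 CPM in controls and 112, 99.0, 113 and 109 CPM in Alport mice. The groups again did not overlap, and the log2 fold change was 0.86 ± 0.07 (adjusted p = 2.19e-05).

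Itgb1, the partner of Itga1, Itga2, Itga3 and Itga8, rose by less than Itga3. Its levels were 240.3, 258, 253 and 261 CPM in control and 363, 389, 409 and 359 CPM in Alport males. In females they were 244, 225, 247 and 244 CPM and 367, 329.6, 366 and 337 CPM. Both sexes were fully separated by genotype, with log2 fold changes of 0.67 ± 0.08 in males (adjusted p = 2.94e-05, edgeR) and 0.58 ± 0.07 in females (adjusted p = 0.000152). The spread between control mice was small for this gene, with an SD of 8.97 CPM in males.

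Itga1 and Itga2 are the alpha chains of the classical collagen-binding integrins. Itga2 had the largest change of the 10 genes and also the lowest counts. It was at 0.212, 0.428, 0.295 and 0.190 CPM in control males, which are 4, 10, 6 and 4 counts, and at 2.39, 3.01, 2.29 and 1.53 CPM in Alport males, which are 59, 74, 60 and 35 counts. In females it was at 0.817, 0.339, 0.510 and 0.228 CPM in controls and 2.88, 2.23, 3.37 and 2.57 CPM in Alport mice. No control mouse reached the level of an Alport mouse on vehicle in either sex. The log2 fold change was 3.07 ± 0.35 in males (adjusted p = 2.28e-05, edgeR) and 2.57 ± 0.33 in females (adjusted p = 0.000201), with the standard errors widest of the 10 genes. Itga1, with 54.3 ± 7.34 CPM in control and 76.1 ± 7.08 CPM in Alport males, rose by 0.57 ± 0.10 on the log2 scale in males (adjusted p = 0.000761, edgeR) and 0.49 ± 0.13 in females (adjusted p = 0.00948). Its 2 groups did not overlap in either sex, with 61.1–80.3 CPM in control and 81.3–120.4 CPM in Alport females. Itga1 (chr13:114953096-115101964) and Itga2 (chr13:114833081-114932100) are neighbours on the minus strand in GRCm38 (GENCODE M21). Itga1 contains the gene Pelo on the same strand, and reads of the overlapping stretch cannot be told apart.

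Itga8 encodes the alpha chain that binds nephronectin and is carried in the adult kidney by mesangial cells and other cells of the stroma. It was at 7.05, 9.12, 7.38 and 8.09 CPM in control and 14.1, 16.3, 23.0 and 13.0 CPM in Alport males. Every Alport male lay above every control male, and the gene rose by 1.15 ± 0.18 on the log2 scale (adjusted p = 0.000215, edgeR). In females, where controls were at 9.20, 8.81, 12.0 and 14.8 CPM and Alport mice at 17.6, 11.2, 15.5 and 13.4 CPM, the groups overlapped. The female log2 fold change of 0.41 ± 0.19 did not pass (adjusted p = 0.0999). Without control replicate 4 or Alport replicate 2 it passed (adjusted p = 0.0278 and 0.0427).

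Of the other genes, 4 belong to the alpha v receptors. Itgav encodes the alpha v chain, which binds vitronectin, fibronectin and the latency peptide of TGF-beta according to its beta partner. Its levels were 146, 156, 203 and 152 CPM in control and 190.4, 231, 186 and 205 CPM in Alport males, so that 1 control male lay within the Alport range. In females it was at 155–174 CPM in controls and 199–249.9 CPM in Alport mice, without overlap. The log2 fold change was 0.39 ± 0.11 in males (adjusted p = 0.0130, edgeR) and 0.46 ± 0.08 in females (adjusted p = 0.00130). A pseudogene, Dnmt3l-ps1, lies on the opposite strand within Itgav, and the strand setting of the counting is not given in the sources used here.

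Itgb5, Itgb6 and Itgb8 encode beta chains that pair with alpha v alone, and they parted ways. Itgb5, a vitronectin receptor chain, was at 121, 127, 135 and 122 CPM in control and 243, 224, 274 and 209 CPM in Alport males. In females it was at 150.1, 135, 141 and 145 CPM and 243, 201, 249.5 and 198 CPM. Both sexes were fully separated, with log2 fold changes of 0.99 ± 0.09 (adjusted p = 5.13e-06, edgeR) and 0.68 ± 0.09 (adjusted p = 0.000210). Itgb8, whose receptor binds latent TGF-beta, was at 209.7, 240.0, 274 and 236 CPM in control and 161, 155, 139 and 201 CPM in Alport males. In females it was at 246, 224, 226 and 173 CPM and 132, 185, 163 and 136 CPM. The male groups did not overlap, while 1 control female lay within the Alport range. Itgb8 fell by 0.47 ± 0.12 on the log2 scale in males (adjusted p = 0.00549, edgeR) and by 0.46 ± 0.13 in females (adjusted p = 0.0155). Itgb6, an epithelial chain whose receptor activates latent TGF-beta, was at 28.2, 34.0, 50.9 and 47.3 CPM in control and 51.6, 66.0, 50.8 and 42.5 CPM in Alport males, with overlap. It passed narrowly in males, with a log2 fold change of 0.48 ± 0.18 (adjusted p = 0.0451), and in females with 0.54 ± 0.15 (adjusted p = 0.0139). Leaving out 1 male ended the call in 5 of 8 cases, namely control replicate 1 or 2 or Alport replicate 1, 2 or 3, with adjusted p-values of 0.0656–0.137.

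Since the 3 chains share 1 alpha partner, the share of each in their summed level per kb was computed as a description. The shares are of these 3 mRNAs only and do not give the make-up of the alpha v receptors. In vehicle-treated control males, Itgb5 made up 56.6% ± 2.46, Itgb8 34.5% ± 0.930 and Itgb6 8.89% ± 1.84 (SD, n = 4). In vehicle-treated Alport males the share of Itgb5 was 74.9% ± 3.79 and that of Itgb8 16.8% ± 3.74. The Itgb8 share was 33.3–35.4% in the control and 13.0–21.9% in the Alport males, so the groups did not overlap. In females the Itgb8 share was 25.8–31.9% in controls and 13.4–20.9% in Alport mice, again without overlap. The Itgb6 share was 8.03% ± 1.38 in control and 8.81% ± 0.670 in Alport females. On NR, the Itgb8 share was 13.1–14.7% in Alport and 26.2–28.2% in control females, without overlap. In males on NR it was 11.4–24.0% in Alport mice and 21.5–33.9% in those labelled as controls, and these ranges overlapped. The overlap was through replicate 1 of the controls, at 21.5%, since the others were at 27.3, 25.6 and 33.9%.

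**Figure D2:**
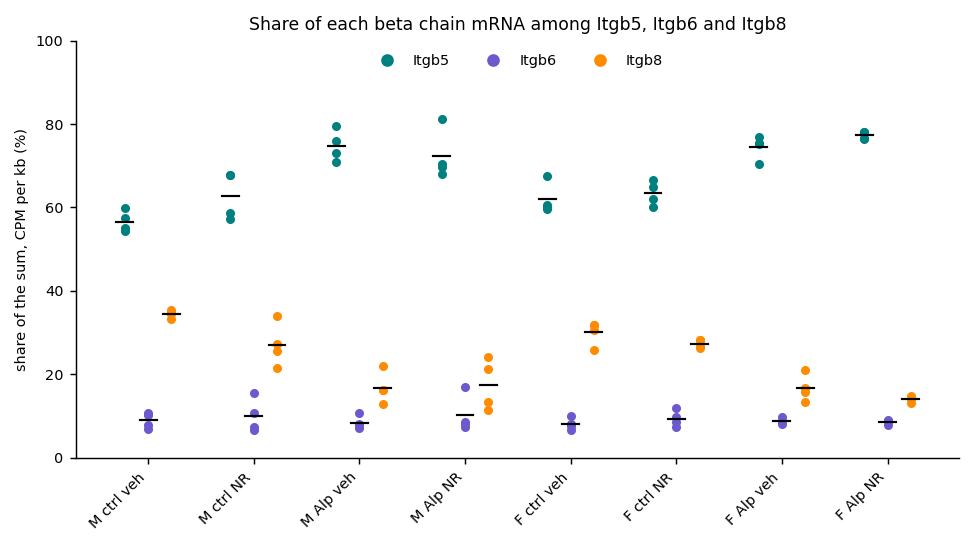
Share of Itgb5, Itgb6 and Itgb8 in their summed CPM per kb of exon (%), for each mouse (points) with the group mean (line), over the 8 groups of 4 mice. The Itgb8 share of each vehicle-treated Alport mouse is below that of all vehicle-treated controls of the same sex (13.0–21.9% in males and 13.4–20.9% in females).

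Ddr1 changed by the least of the genes that passed. It was at 234, 241, 242 and 233 CPM in control and 259.8, 287, 269 and 262 CPM in Alport males. In females it was at 231, 254, 225 and 243 CPM and 271, 264, 276 and 285 CPM. The groups were separated in both sexes, and the log2 fold change was 0.26 ± 0.07 in males (adjusted p = 0.00823, edgeR) and 0.24 ± 0.07 in females (adjusted p = 0.0134). Some calls on vehicle depended on the fit. With all 32 mice in 1 fit, Itgav, Itgb6 and Ddr1 in males and Itga1, Itgb6 and Ddr1 in females no longer passed. Of all genes, 48.3% passed in males and 36.5% in females in that fit.

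The promoters of the genes with the largest rise (Itga2), of both genes that rose most clearly among the abundant chains (Itga3 and Itgb5) and of the gene that fell (Itgb8) are shown to let the reader compare them. Each is the 250 bases before the RefSeq start of the gene in GRCm38.p6 (mm10 is the build in the submitters' processing notes), 5′ to 3′ on the strand of the gene, with the SP1 motif GGGCGG or its reverse complement in capitals.
Itga2 (chr13:114932101-114932350, minus strand): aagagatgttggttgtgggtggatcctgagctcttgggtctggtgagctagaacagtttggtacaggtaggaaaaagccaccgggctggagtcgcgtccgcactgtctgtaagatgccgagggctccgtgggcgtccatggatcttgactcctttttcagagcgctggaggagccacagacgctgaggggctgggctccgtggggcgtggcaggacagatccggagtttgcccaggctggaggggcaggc
Itga3 (chr11:95076715-95076964, minus strand): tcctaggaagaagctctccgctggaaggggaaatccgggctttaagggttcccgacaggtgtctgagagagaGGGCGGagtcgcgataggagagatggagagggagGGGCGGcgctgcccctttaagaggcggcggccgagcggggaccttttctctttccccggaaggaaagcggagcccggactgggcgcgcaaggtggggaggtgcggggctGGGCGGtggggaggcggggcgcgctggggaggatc
Itgb5 (chr16:33829415-33829664, plus strand): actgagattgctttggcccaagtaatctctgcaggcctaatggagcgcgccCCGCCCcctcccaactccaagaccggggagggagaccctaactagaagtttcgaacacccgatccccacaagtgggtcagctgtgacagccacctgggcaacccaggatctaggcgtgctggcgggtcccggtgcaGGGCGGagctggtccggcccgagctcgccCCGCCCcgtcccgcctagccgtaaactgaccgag
Itgb8 (chr12:119238277-119238526, minus strand): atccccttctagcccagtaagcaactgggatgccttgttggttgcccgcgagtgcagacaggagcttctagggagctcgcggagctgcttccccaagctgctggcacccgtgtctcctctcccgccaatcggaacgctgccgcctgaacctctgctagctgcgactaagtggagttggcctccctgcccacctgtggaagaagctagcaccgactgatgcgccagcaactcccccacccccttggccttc
The promoters shown of Itga3 and Itgb5 held 3 SP1 motifs each, while those of Itga2 and Itgb8 held none. Itga3 has another RefSeq promoter, not shown, with 1 motif. The promoters of Itga1, Itga8, Itgav and Itgb6, which also rose in males, held none. The 10 genes had 15 RefSeq promoters, of which 7, from 4 genes, held the motif, where 32.74% of 32851 promoters of the mouse genome did. The AP-1 motif TGANTCA was in 1 promoter, an alternative one of Ddr1 (6.75% of all promoters), and the TEAD motif GGAATG in 1, that of Itgb1 (12.64%). All motifs were searched on both strands, and a match of letters is a description, not a site.

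Other receptors of the same families were read from lists, as a background to the 10 genes. Among all genes tested on vehicle, 26.8% rose and 24.2% fell in Alport males, and 24.0% and 21.8% in Alport females. Of 8 leukocyte integrins listed, 7 were tested and 7 rose in both sexes, with a median log2 fold change of 2.10 in males and 1.78 in females. Itgb2, the common beta chain of leukocytes, rose by 2.95 ± 0.15 on the log2 scale in males and 2.33 ± 0.32 in females, and the values that follow are on the same scale. Of 9 further integrins, 6 rose and 1 fell in males and 7 rose in females. Itga11, a collagen-binding chain of fibroblasts, rose by 4.04 ± 0.37 in males and 2.77 ± 0.41 in females. In each comparison of control mice alone, 8 of these 9 integrins were tested, so not all of them passed the filter without Alport libraries. The counts of these 9 and the values of Itga11 are therefore a description. Of 4 other collagen receptors, 3 were tested in males and 4 in females, and 3 rose in each sex. Ddr2, the relative of Ddr1 found on mesenchymal cells, rose by 2.65 ± 0.15 in males and 1.92 ± 0.19 in females, where Ddr1 rose by 0.26 ± 0.07 and 0.24 ± 0.07. These lists moved in the same comparisons as the leukocyte and fibroblast markers given above, whose part in them was not tested.

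**Figure D3:**
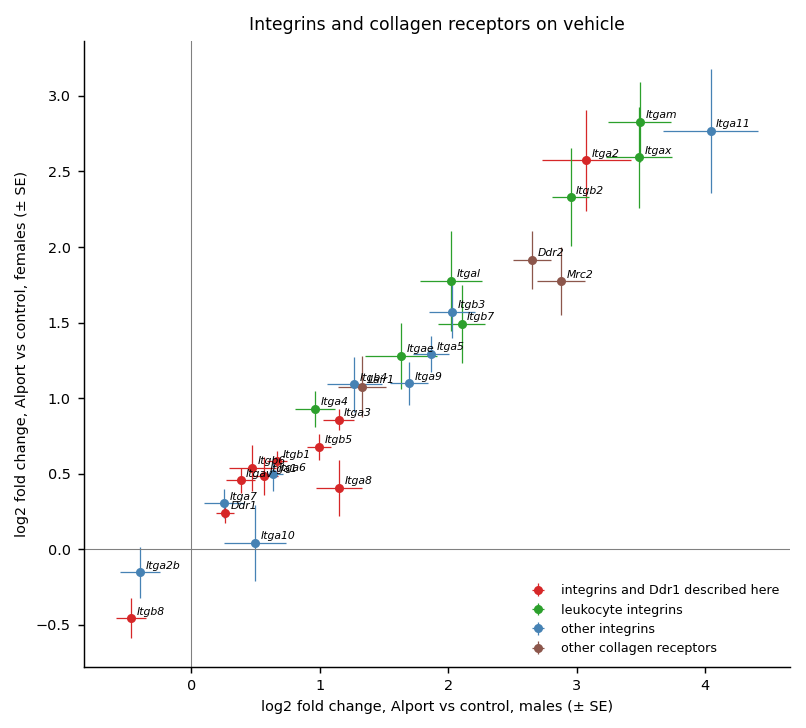
Log2 fold change of vehicle-treated Alport against control mice in males (x axis) and females (y axis), with SE, for the 10 receptor genes (red), leukocyte integrins (green), other integrins (blue) and other collagen receptors (brown), each fitted on 4 against 4 mice per sex. Itga11 lies at 4.04 and 2.77, and Itgb8 lies lowest on both axes at −0.47 and −0.46.

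On the ligand side, 28 matrix genes were listed and 27 were tested in each sex. Of these, 24 rose in males and 23 in females, with 1 that fell in each sex. Col1a1, a chain of fibrillar collagen I, rose by 5.05 ± 0.19 on the log2 scale in males and 3.97 ± 0.31 in females, and Tnc, the matrix protein tenascin C, by 4.01 ± 0.22 and 3.25 ± 0.26. Of 9 genes of latent TGF-beta, 8 rose in males and 7 in females, none fell, and Tgfb1 itself rose by 2.23 ± 0.09 and 1.90 ± 0.11. Inside the cell, changes went both ways. Of 30 linkers and kinases of the adhesion complex, 13 rose and 5 fell in males, and 14 rose and 6 fell in females. Among all genes tested, 26.8% rose and 24.2% fell in males, and 24.0% and 21.8% in females. Fermt3, the kindlin of blood cells, rose by 2.24 ± 0.18 on the log2 scale in males and 1.68 ± 0.15 in females, and Flna, filamin A, by 1.99 ± 0.15 and 1.33 ± 0.17.

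The effect of genotype was then compared between the sexes in the 16 vehicle-treated mice. None of the 10 genes passed the interaction test, which also asked for a 2-fold difference and was passed by 0.285% of 16152 genes. With no fold limit, 0.532% of genes passed and again none of the 10. Of the 10, 3 had an unadjusted p under 0.05, each with the larger log2 fold change in males. The difference was 0.78 ± 0.27 for Itga8 (adjusted p = 0.236, edgeR), 0.35 ± 0.13 for Itgb5 (adjusted p = 0.254) and 0.32 ± 0.15 for Itga3 (adjusted p = 0.395). A sex difference of the Alport effect was therefore not shown for any of them.

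Control mice on vehicle differed by sex in 4 of the 9 genes tested, all lower in males, where 31.7% of 14990 genes passed (15.8% as higher and 15.9% as lower in males). Itga2 was not tested, since its counts did not pass the filter there. Itga3 was lower in males by 0.44 ± 0.07 on the log2 scale (adjusted p = 0.000714, edgeR), with no overlap between 44.3–49.7 CPM in males and 56.9–64.7 CPM in females. The log2 fold change of males against females was −0.43 ± 0.11 for Itga1 (adjusted p = 0.00995), −0.52 ± 0.17 for Itga8 (adjusted p = 0.0361) and −0.20 ± 0.06 for Itgb5 (adjusted p = 0.0255). The call of Itga8 ended without male replicate 1, 3 or 4 or female replicate 3 or 4 (adjusted p = 0.0668–0.104), and that of Itgb5 without male or female replicate 1 or 4 (adjusted p = 0.0625–0.0764). With all 32 mice in 1 fit, Itga3 was the 1 gene of the 4 that passed (adjusted p = 0.0372, edgeR), with 0.163 for Itga1, 0.0992 for Itga8 and 0.461 for Itgb5. Itga8 did not pass with limma-voom (adjusted p = 0.0622), nor Itgb5 with no filter on low counts (adjusted p = 0.0537). In the same mice, the summed podocyte markers were 540.2–621 CPM in males and 733–777 CPM in females, and their part in these differences was not tested.

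To see whether the treatment moved these receptors in diseased kidneys, NR-treated Alport mice were compared with vehicle-treated Alport mice of the same sex. No gene of the 10 passed in either sex. In males, 0% of 15500 genes passed with edgeR, although 785 had an unadjusted p under 0.05 and DESeq2 called 62. Without replicate 1 of the NR-treated Alport males, edgeR called 380 of 15662 genes (2.43%) and none of the 10. In females 0.477% of 15712 passed. The log2 fold change was below 0 for 8 of the 10 genes in males and all 10 in females. The same 8 vehicle-treated Alport mice served as the baseline here and as the diseased group above.

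In females, the 2 groups did not overlap for Itgav, Itga2 and Ddr1, a separation found for 9.10% of genes in that comparison. Itgav was at 249.9, 199, 232 and 204 CPM on vehicle and 186, 146, 159 and 165 CPM on NR. The NR-treated Alport females can be set beside the vehicle-treated control females, which were at 155–174 CPM. The log2 fold change of −0.42 ± 0.10 had an adjusted p of 0.121 with edgeR and 0.00850 with DESeq2. Itga2 was at 2.88, 2.23, 3.37 and 2.57 CPM on vehicle and 2.04, 1.97, 0.866 and 0.929 CPM on NR, a log2 fold change of −0.93 ± 0.32 (adjusted p = 0.203, edgeR). Ddr1 was at 271, 264, 276 and 285 CPM on vehicle and 262, 249, 242 and 212 CPM on NR. Itga1 and Itgb8 had an unadjusted p under 0.05 as well, with log2 fold changes of −0.48 ± 0.17 (adjusted p = 0.214, edgeR) and −0.40 ± 0.17 (adjusted p = 0.285). For Itgb8 this value lies on the same side of 0 as the Alport effect, while for Itgav, Itga2 and Itga1 it lies on the opposite side.

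In males, the 4 NR-treated Alport mice were widely spread. Replicate 1 of this group was the highest of the 4 for 8 of the 10 genes, with 313 CPM of Itgb5 where the others had 176, 149 and 179.9 CPM. Its summed leukocyte markers were 649.6 CPM where the others had 114–263 CPM, and its matrix genes summed to 14925 CPM where the others had 4969–5948 CPM. Itga8 alone had an unadjusted p under 0.05, with 14.1, 16.3, 23.0 and 13.0 CPM on vehicle and 15.1, 8.86, 9.37 and 9.28 CPM on NR. Its log2 fold change of −0.65 ± 0.23 did not pass (adjusted p = 0.920, edgeR), and replicate 1 lay within the range of the vehicle-treated mice. The male groups overlapped for each of the 10 genes, while 3.43% of all genes were separated.

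With both sexes in 1 fit and sex as a covariate, 1.47% of 15830 genes passed, and none of the 10 did. The log2 fold change of all 10 was below 0, between −0.77 and −0.04, with a median of −0.23 against 0.012 for all genes. Itgav came closest, at −0.36 ± 0.09 (adjusted p = 0.0577, edgeR), followed by Ddr1 at −0.19 ± 0.07 (adjusted p = 0.170) and Itga2 at −0.77 ± 0.30 (adjusted p = 0.179). Without replicate 1 of the NR-treated Alport males, 4 of the 10 passed, Itga1 at −0.44 (adjusted p = 0.0403, edgeR), Itgav at −0.43 (adjusted p = 0.00251), Itga2 at −1.11 (adjusted p = 0.00818) and Ddr1 at −0.21 (adjusted p = 0.0443), while the number of all genes called went from 232 to 2466 (15.5%). A difference of the NR effect between the sexes was not shown for any gene of the 10 or of all 16189 tested (lowest adjusted p over all genes 0.651, edgeR, with 363 genes at an unadjusted p under 0.05).

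**Figure D4:**
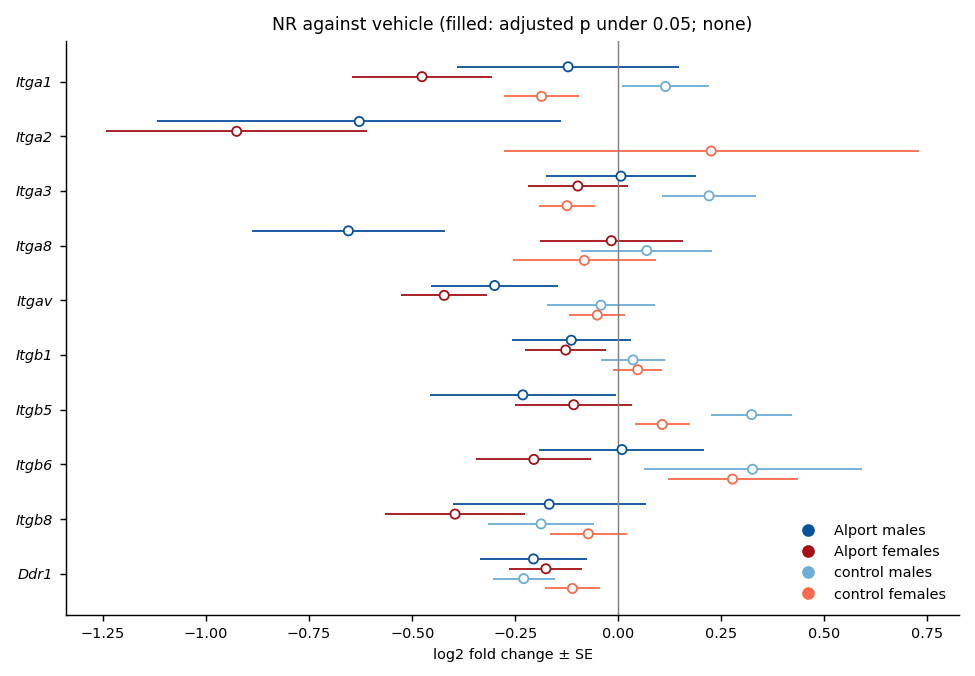
Log2 fold change ± SE of NR against vehicle for the 10 receptor genes in Alport males, Alport females, control males and control females, each from 4 against 4 mice; open points have an adjusted p of 0.05 or more, and all points are open. Itga2 lies lowest in Alport females, at −0.93, and has no point in control males, where it was not tested.

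NR in control mice gave no call among these genes either. In males, 4.53% of 14696 genes passed and 0 of the 9 tested (230 of 14955 genes, 1.54%, without NR replicate 1), and in females 6.18% of 14951 and 0 of 10. In males the groups did not overlap for Itgb5 and Ddr1, where 13.3% of genes were separated. Itgb5 was at 121, 127, 135 and 122 CPM on vehicle and 164, 141, 178 and 143 CPM on NR, a log2 fold change of 0.32 ± 0.10 (adjusted p = 0.0875, edgeR). Ddr1 was at 234, 241, 242 and 233 CPM on vehicle and 199, 207, 209.6 and 189 CPM on NR, a log2 fold change of −0.23 ± 0.08 (adjusted p = 0.108). DESeq2 called both, with adjusted p-values of 0.0346 and 0.0219, among 11.3% of all genes. Without NR replicate 4, 2 of the genes passed with edgeR, Itgb5 at 0.38 (adjusted p = 0.0334) and Itga3 at 0.31 (adjusted p = 0.0472), while 12.8% of all genes did (1886 of 14775). Without NR replicate 1, whose Col4a3 was at the Alport level, the log2 fold changes were 0.29 for Itgb5 and −0.23 for Ddr1 (adjusted p = 0.205 and 0.207). The endothelial markers of these males summed to 743–979 CPM on NR and 502–558 CPM on vehicle. The fibroblast and mesangial markers summed to 153–221 CPM on NR and 111–120.0 CPM on vehicle, and the matrix genes to 1889–3137 and 1615–1696 CPM. None of the 3 sums overlapped between the groups, and their part was not tested. In females no group was separated for any of the 10 genes (14.4% of all genes were), and log2 fold changes were between −0.19 and 0.28.

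The interaction of NR and genotype asks whether NR acted differently in Alport and control mice. In neither sex did any gene of the table pass (0%), with 1398 of 15800 in males and 1521 of 16064 in females at an unadjusted p under 0.05 with edgeR. Among the 10, Itga8 and Itgb5 had such a p in males, with differences of −0.74 ± 0.29 (adjusted p = 0.512, edgeR) and −0.57 ± 0.25 (adjusted p = 0.539). Both passed without replicate 1 of the NR-treated Alport males, at −0.94 (adjusted p = 0.0461) and −0.84 (adjusted p = 0.00926), where 782 of 15942 genes did (4.91%), and neither did without replicate 1 of the libraries labelled as NR-treated control males, at −0.84 (adjusted p = 0.758) and −0.54 (adjusted p = 0.784). In females, Itgav and Itgb6 had such a p, with −0.39 ± 0.13 (adjusted p = 0.402) and −0.51 ± 0.24 (adjusted p = 0.522).

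Finally, Alport and control mice were compared within the NR-treated groups. In females, Itga3, Itgb1 and Itgb5 rose and Itgb8 fell, where 27.5% of 15109 genes passed (14.4% higher and 13.1% lower). Itga3 was at 61.9, 54.7, 52.5 and 56.6 CPM in control and 106, 125, 84.9 and 86.3 CPM in Alport females, a log2 fold change of 0.87 ± 0.12 (adjusted p = 0.00102, edgeR). Itgb8 was at 202, 196, 212 and 216 CPM in control and 137, 130.5, 118 and 80.4 CPM in Alport females, with −0.80 ± 0.14 (adjusted p = 0.00303). Both were separated without overlap, as was Itgb1 (30.7% of all genes were), with 0.39 ± 0.09 (adjusted p = 0.0104). Itgb5, at 0.44 ± 0.13 (adjusted p = 0.0277), lost its call without control replicate 1, 2 or 4 or Alport replicate 1, 2 or 3 (adjusted p = 0.0520–0.0842). Itga2, at 1.41 ± 0.48 (adjusted p = 0.0521), and Itga8, at 0.45 ± 0.17 (adjusted p = 0.0683), did not pass. Itga2 passed without control replicate 2 or Alport replicate 3 or 4 (adjusted p = 0.0314–0.0463), and Itga8 without Alport replicate 3 (adjusted p = 0.0173). Here too Itga2 passed the filter through its Alport libraries, with 2 of the 4 controls at the level it needs. Itgav, which rose in vehicle-treated Alport females, had 0.07 ± 0.09 here (adjusted p = 0.634), at 152–174 CPM in control and 146–186 CPM in Alport mice.

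In males on NR, 0% of 14884 genes passed with edgeR, with 3214 at an unadjusted p under 0.05. Itga2, Itga3 and Itgb1 were nevertheless separated without overlap (14.7% of all genes were). Itga3 was at 63.0, 53.9, 52.1 and 43.7 CPM in control and 127, 83.7, 98.7 and 81.5 CPM in Alport males, a log2 fold change of 0.90 ± 0.18 (adjusted p = 0.0735, edgeR). Itga2 was at 0.115, 0.537, 0.466 and 0.275 and 3.26, 1.27, 0.741 and 0.724 CPM, with 2.12 ± 0.63 (adjusted p = 0.113), and Itgb1 had 0.48 ± 0.15 (adjusted p = 0.126). DESeq2 called these 3 genes, with adjusted p-values of 0.000879 for Itga3, 0.0229 for Itgb1 and 0.0283 for Itga2, among 9.28% of all genes. Itga2 had again passed the filter through its Alport libraries, with 0 of the 4 controls at the level it needs, so that its difference was fixed by the filter. Without replicate 1 of the libraries labelled as NR-treated control males, the log2 fold changes were 0.99 for Itga3, 1.84 for Itga2 and 0.48 for Itgb1, and none passed (adjusted p = 0.172–0.247, edgeR).

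**Figure D5:**
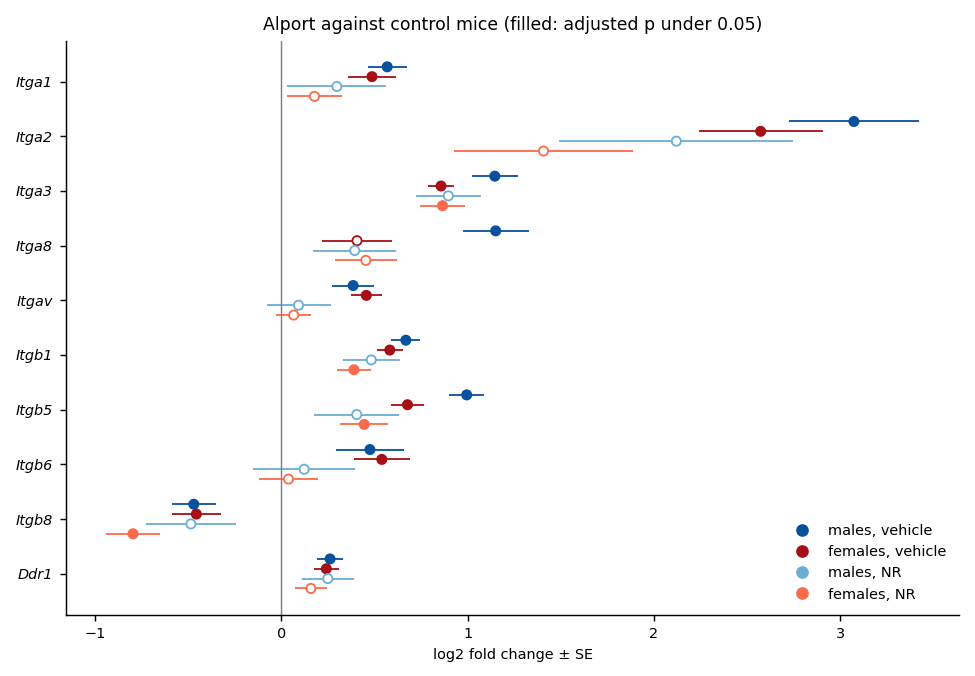
Log2 fold change ± SE of Alport against control mice for the 10 receptor genes, on vehicle and on NR, in males and females (4 against 4 mice each); filled points have an adjusted p under 0.05. Itgb8 lies below 0 in all 4 comparisons and the other 9 genes above 0.

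Across the 32 mice, the receptors followed each other to different degrees. As a description, over mice that share the group differences, the correlation of log2 CPM was 0.858 for Itgb1 and Itgb5, 0.868 for Itga3 and Itgb1, and −0.582 for Itgb1 and Itgb8. After the 8 group means were taken off, the same values were 0.626, 0.653 and −0.0101, so the value for Itgb1 and Itgb8 was negative over all mice and close to 0 within groups. Among all 13857 genes with at least 1 CPM in at least 16 mice, the gene most like Itga3 was Actn1, an actin crosslinker of adhesion sites (r = 0.973, and 0.877 within groups). Those most like Itgb5 were Mxra8 (r = 0.965) and Lhfp (r = 0.964), and within groups Des (r = 0.904) and Sparc (r = 0.899), which encode an intermediate filament of muscle-like cells and a matrix protein. Itgb1 was most like Dpysl3 (r = 0.954) and Thbs2, the matrix protein thrombospondin 2 (r = 0.953). Itgb8 was most like Fut9 (r = 0.935) and Ghr, the growth hormone receptor (r = 0.932), and within groups Osbpl8 (r = 0.890). Itga2 was under the level needed for this ranking.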

How the data were processed

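Kidney cortex of 32 mice was profiled by RNA-Seq. The authors deposited whole-number counts per gene symbol and mouse, made from poly(A) RNA with BioJupies; mm10 is the build in the submitters' processing notes, and the aligner, annotation and strand setting are not given in the sources used here. A second deposited table holds log10 values, log10(CPM + 1), which differed from the counts by at most 8.88e-16 and was not used further.

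Differences were computed on the whole count table by the quasi-likelihood test of edgeR (version 4.0.16, R 4.3.3), in 1 fit per comparison, after TMM scaling and removal of low genes by filterByExpr (minimum count 10). P-values were adjusted by Benjamini-Hochberg over all genes that remained, with a threshold of 0.05. The interaction of sex and genotype also needed a 2-fold difference. CPM per mouse used TMM factors over all 32 mice (0.828–1.25), and log2 CPM a prior count of 2. Exon lengths and overlapping genes came from GENCODE M21 (GRCm38), promoters from RefSeq (GRCm38.p6). The fits with edgeR, limma-voom and DESeq2 were tested on simulated counts.

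Alternatives were DESeq2 1.42.0, limma-voom (limma 3.58.1), all 32 mice in 1 fit, DESeq2-type (RLE) size factors, no filter on low counts, no fold limit, a replicate block and leaving out each mouse. The 10 genes, the gene lists and the tests were chosen with earlier results of these data known. All 10 genes were eligible to be named in each comparison, and those that did not pass are given in part by their count and range. Of each other list, up to 3 genes with the largest mean log2 fold change among those called the same way in both sexes on vehicle were eligible, and for likeness the 3 genes with the highest correlation. The mouse was the replicate, and the 48 pairs of mice within groups differed by more than sampling noise (lowest chi-square 7.96 per degree of freedom). Depth was 16621944–27778797 counts per mouse, which limits Itga2, with as few as 2 counts in a mouse. A comparison of 4 against 4 mice by exact permutation cannot give a p below 0.0286 (two-sided).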

Additional observations from a re-analysis of the deposited data

Results flagged for a closer look

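Of 80 groups of 4 mice (10 genes in 8 groups), 3 held a mouse whose gap to the others was above Dixon's critical value for 4 samples, where chance gives about 1 in 20. Itga8 was 15.1 CPM in replicate 1 of the NR-treated Alport males, with the other 3 mice at 8.86–9.37 CPM. Itgb1 was 225 CPM in replicate 2 of the vehicle-treated control females, with the others at 244–247 CPM. Itgb1 was 237 CPM in replicate 2 of the NR-treated control females, with the others at 251–253 CPM.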

How the results depend on the processing

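On vehicle, the number of the 10 genes called in Alport against control mice was 7–10 over the alternative fits in males and 6–9 in females (9–10 in both sexes with 1 mouse left out), the lower values with all 32 mice in 1 fit. With all 32 mice, 48.3% of all genes passed in males and 36.5% in females. Over the alternative fits, the share of all genes was 34.9–52.3% in males and 30.9–47.8% in females. With 1 mouse left out, it was 44.7–51.4% and 38.3–48.1%. Of the fold changes of the 10 genes over the 14 comparisons, 49 had an unadjusted p under 0.05, and none of these turned its direction under any alternative run. Of the 89 others, 32 turned under at least 1 alternative. Counts of the 10 genes called moved as follows. For NR in Alport females, DESeq2 gave 1 in place of 0 (4.63% of all genes). For NR in control males, DESeq2 gave 2 in place of 0 (11.3% of all genes), and leaving out 1 mouse gave 0–2 (0.496–12.8%). For Alport against control males on NR, DESeq2 gave 3, all 32 mice in 1 fit 5 and no filter on low counts 1, in place of 0. The shares of all genes there were 9.28%, 27.7% and 0.854%. For Alport against control females on NR, DESeq2 gave 6 in place of 4 (31.4% of all genes in place of 27.5%). Leaving out 1 mouse gave 3–6 there (19.5–32.6%). For male against female controls, all 32 mice in 1 fit gave 1 in place of 4, and leaving out 1 mouse gave 2–4, with 2 without male replicate 1 or 4 or female replicate 4. For NR in Alport mice of both sexes, DESeq2 gave 1, limma-voom 1 and all 32 mice in 1 fit 2, in place of 0. The shares of all genes there were 5.67%, 1.62% and 6.17%. Leaving out 1 mouse gave 0–4 (0.734–15.5%). For the interaction of NR and genotype in males, leaving out 1 mouse gave 0–2 in place of 0 (0–4.91% of all genes). The cause was not tested.

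Over all genes, calls for NR in Alport males were 0, and 62 with DESeq2 and 88 with all 32 mice in 1 fit. In Alport females they were 75, and 728, 253 and, with no filter, 116. In control males they were 666, and 1654 with DESeq2, and in control females 924, and 1493 with DESeq2 and 18 with all mice in 1 fit. For Alport against control males on NR they were 0, and 1381 with DESeq2, 4565 with all mice and 191 with no filter. Male against female controls gave 4756, and 2799 with all mice. NR in both sexes gave 232, and 897 with DESeq2 and 1016 with all mice. The interaction of sex and genotype gave 46, and 115 with DESeq2, 28 with limma-voom, 4 with all mice and 86 with no fold limit. With 1 mouse left out, NR gave 0–380 calls in Alport males, 9–166 in Alport females, 74–1886 in control males and 395–809 in control females. The interactions with NR gave 0, and with DESeq2 20 (genotype, males), 30 (genotype, females) and 1 (sex).

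Replicate numbers were shared between groups, and the main fits treated the mice as unpaired. The deviations of same-numbered mice from their group means correlated at −0.220 to 0.385 over 36 pairs. Of these, 12 were over 0.1, and no comparison had all 4 over 0.1. These values do not settle whether the numbers pair the mice. With the replicate block, 1 of the 10 genes passed in place of 0 for Alport against control males on NR (Itga3, adjusted p = 0.0317, edgeR). Over all genes, 386 passed there in place of 0 (2.45%). For NR in Alport mice of both sexes, 1 passed in place of 0 (Itgav, adjusted p = 0.0430, edgeR), among 1.70% of all genes. In Alport against control females on NR, 5 passed in place of 4 (25.0% of all genes did). Between male and female controls, 3 passed in place of 4 (27.2% of all genes did), and Itgb5 did not (adjusted p = 0.0644, edgeR). The block gave 300 calls over all genes in place of 666 for NR in control males and 348 in place of 924 in control females.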
